A study of Mus musculus with 4 samples.

Results

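Promoter regions with an H3K27ac peak in EGFP- cells of only 1 tissue were described in mouse fetuses at E14.5. Peak intervals of 4 ChIP-seq lists were merged into 62558 union regions, of which 19907 reached a promoter window, which ran from 2 kb before a protein-coding start site to 500 bp after it (GRCm39). A region was a member when intervals of exactly 1 list covered it, and that list was either limb EGFP- or trunk EGFP-. This gave 1328 regions, 616 marked in limb EGFP- cells alone and 712 marked in trunk EGFP- cells alone. These were 3.09% (exact 95% interval 2.86 to 3.34) and 3.58% (3.32 to 3.84) of all promoter regions. They lay in the windows of 622 genes for the limb and 676 genes for the trunk, that is 2.88% and 3.13% of the 21581 protein-coding genes. Members were chosen by the presence and absence of peaks in these same lists, so peak strength, width and read numbers are given as a description and support nothing.

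H3K27ac is the acetylation of lysine 27 of histone H3, a mark carried by nucleosomes that flank active promoters and active enhancers. At promoters rich in CpG dinucleotides the mark is shared by most cell types, whereas promoters poor in CpG more often belong to genes used by few cell types. A mixed cell population gives a diluted signal for a promoter that only a minor cell type uses. Skin epithelium, skeletal muscle, nerve, vessels, blood and connective tissue are the cell types expected around the cartilage of limb and trunk at this stage.

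The fetuses were male and came by tetraploid aggregation from G4 embryonic stem cells with the homozygous genotype Col2a1-EGFP, in which an EGFP cassette with a minimal promoter sits upstream of Col2a1, the gene of the main cartilage collagen. All 4 populations carried this allele and the fetuses were given no treatment. Per the paper's methods, Na-butyrate was added to the cell suspension meant for ChIP and to the ChIP buffers. Fore- and hindlimbs, and trunks from neck to tail without internal organs, were pooled and dissociated, and cells were sorted by fluorescence into EGFP+ and EGFP-, with 1 library for each of limb EGFP+, limb EGFP-, trunk EGFP+ and trunk EGFP- cells. EGFP- cells are all cells that the sort called negative, so fewer cells of a type and less acetylation per cell cannot be told apart. Limb libraries ran in 1 sequencing lane and trunk libraries in another, and the effects of lane and of tissue cannot be told apart. With 1 library per population no test between populations was possible, and all intervals below are exact binomial intervals that cover counting error only and treat neighbouring regions as independent.

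The 4 lists held 30716 to 40899 intervals, with a median of 26 to 29 reads at a summit. Promoter peaks at known cartilage genes followed the sort labels in part. At Col2a1 the highest −log10 p was 18.7 in limb EGFP+ and 11.8 in trunk EGFP+ cells, against 5.67 in limb EGFP- cells and no interval in trunk EGFP- cells. At Acan, which encodes the proteoglycan aggrecan, it was 19.04 and 14.23 in the EGFP+ lists, with no interval in either EGFP- list. The defining promoters of several other cell types had no interval in any list, namely Myod1 for muscle, Krt14 and Trp63 for epidermis, Pecam1 and Cdh5 for endothelium and Sox2 for neural progenitors. Sox9, the master transcription factor of cartilage that is also used outside it, did not follow the labels, with 20.5 and 14.7 in limb EGFP+ and limb EGFP- cells but 16.2 and 20.6 in trunk EGFP+ and trunk EGFP- cells. Tubb3, a neuronal tubulin, had an interval in trunk EGFP- cells alone, with a −log10 p of 3.82.

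To show what the regions look like, 150 bases centred on the summit are printed for members that lie on genes of fixed cell type lists and are the only marked region in the windows of their gene. They are written 5′ to 3′ on the strand of the gene, with CpG dinucleotides in capitals. In the limb these are Esrp1 (minus strand, chr4:11385988-11386137, in an intron), Lyve1 (minus strand, chr7:110463879-110464028, upstream of the gene), Chrng (plus strand, chr1:87133180-87133329, in an intron of a transcript) and Tfap2a (minus strand, chr13:40883176-40883325, in an intron).
Esrp1: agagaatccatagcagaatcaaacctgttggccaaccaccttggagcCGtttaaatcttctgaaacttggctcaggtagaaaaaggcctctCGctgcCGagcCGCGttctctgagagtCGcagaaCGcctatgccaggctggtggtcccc
Lyve1: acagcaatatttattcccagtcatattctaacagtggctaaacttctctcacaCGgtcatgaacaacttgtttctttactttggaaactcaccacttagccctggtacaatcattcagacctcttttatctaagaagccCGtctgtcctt
Chrng: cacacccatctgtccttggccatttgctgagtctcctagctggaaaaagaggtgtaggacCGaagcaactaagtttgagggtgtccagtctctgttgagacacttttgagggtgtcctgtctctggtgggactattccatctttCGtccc
Tfap2a: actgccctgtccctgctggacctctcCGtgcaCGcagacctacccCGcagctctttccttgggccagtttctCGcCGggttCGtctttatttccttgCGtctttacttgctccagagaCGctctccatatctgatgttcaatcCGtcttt

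In the trunk the matching members are Alpl (minus strand, chr4:137511012-137511161, in an intron), Ap1m2 (minus strand, chr9:21223079-21223228, in an intron), Srrm4 (minus strand, chr5:116730273-116730422, upstream of the gene) and Rapsn (plus strand, chr2:90865677-90865826, upstream of the gene).
Alpl: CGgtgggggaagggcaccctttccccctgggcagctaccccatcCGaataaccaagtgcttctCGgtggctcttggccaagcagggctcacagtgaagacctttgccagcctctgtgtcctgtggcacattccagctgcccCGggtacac
Ap1m2: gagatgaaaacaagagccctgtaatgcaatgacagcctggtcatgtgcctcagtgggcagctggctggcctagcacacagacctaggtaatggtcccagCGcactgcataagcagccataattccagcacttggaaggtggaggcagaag
Srrm4: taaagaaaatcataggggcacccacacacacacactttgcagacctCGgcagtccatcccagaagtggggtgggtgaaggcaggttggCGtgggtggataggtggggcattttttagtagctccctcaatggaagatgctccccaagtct
Rapsn: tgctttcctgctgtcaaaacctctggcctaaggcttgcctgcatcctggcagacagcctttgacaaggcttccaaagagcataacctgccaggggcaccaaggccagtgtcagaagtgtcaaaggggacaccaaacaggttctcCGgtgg

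The stretches at Esrp1 and Tfap2a hold 7 and 9 CpG, whereas those at Lyve1, Chrng, Srrm4, Ap1m2 and Rapsn hold only 1 or 2 each and that at Alpl holds 4. The letters CAGCTG, an E-box read by many basic helix-loop-helix factors, occur at Alpl and Ap1m2. None of the other motifs searched occurs in these 8 stretches.

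Members were weak peaks, as were the promoter regions of 1 EGFP+ population alone. The −log10 p of the strongest summit ran from 3.38 to 20.7 with a median of 6.36 among limb members, and from 3.44 to 22.5 with a median of 6.14 in the trunk group. The medians were 6.83 and 5.89 for the 1308 limb EGFP+ and 631 trunk EGFP+ promoter regions marked alone, 8.69 for the 351 regions marked in both EGFP- lists alone, and 33.5 for the 12763 regions marked in all 4 lists. For a region of several lists, strength, reads, fold and summit number are those of its strongest interval in any list, and its width spans the merged intervals. A member has 1 list, so these measures are not alike between the classes. A member had a median of 15 reads at its summit in the limb and 16 in the trunk, against 63 for regions of all 4 lists. The median fold over the local background was 3.62 and 3.55, against 7.07. Median widths were 245 and 251 bp against 847 bp, and 97.1% and 97.2% had 1 summit against 61.04%. Promoter regions of 1 EGFP+ population alone had like values, with median widths of 253.5 and 248 bp, 17 and 15 reads, folds of 3.62 and 3.45, and 1 summit in 96.0% and 96.8% for limb and trunk. A −log10 q of at least 5 was reached by 195 limb members (31.7%) and 203 trunk members (28.5%), and 47 (7.63%) and 91 (12.8%) lay below a −log10 q of 2.

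**Figure D1:**
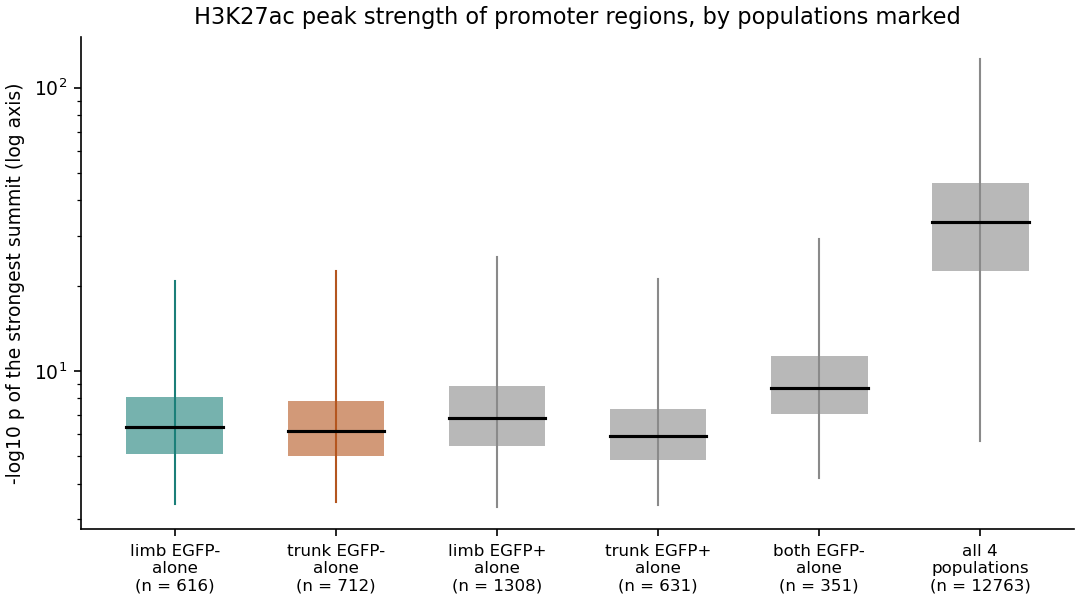
Strength of H3K27ac promoter peaks by the populations that carry them. For regions of several populations the strongest interval of any of their lists is shown. The y axis (log axis) gives the −log10 p of the strongest summit, boxes span the quartiles, black lines are medians and thin lines run from the lowest to the highest region; medians are 6.36 and 6.14 for regions of 1 EGFP- population and 33.5 for regions of all 4 populations.

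The edges of the rule were as follows. The weakest members by −log10 q were Mical3 (1.31, 7 reads) and Kcnk5 (1.34, 10 reads) in the limb, and Arhgef2 and Banp (1.302 each, 16 and 17 reads) in the trunk, where the lists themselves begin. The limb region at Rfk reached its window by 2 bp and the trunk region at Lifr by 3 bp, whereas regions near Fcgr3 (limb, −log10 p of 4.92) and H4c17 (trunk, 8.91) missed a window by 1 bp. At Erbb3, a receptor of glial and Schwann cell precursors, the limb interval chr10:128425625-128426010 (−log10 p of 11.8) and the trunk interval chr10:128426010-128426367 (6.51) shared 1 bp and so formed a region of both lists. At Dpep1 the opposite happened, and a trunk interval (chr8:123912159-123912358, 5.94) and a limb interval (chr8:123912360-123912915, 6.62) separated by 1 bp became a member of each group.

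Only a part of the members lay far from peaks of other populations. An interval of another list came within 1 kb of 359 limb members (58.3%, 54.3 to 62.2) and 322 trunk members (45.2%, 41.5 to 49.0). This share was higher among stronger members. It was 52.4% (44.98 to 59.8) of the 185 limb members with a −log10 q below 3 and 88.0% (75.7 to 95.5) of the 50 of −log10 q 8 or more. In the trunk it was 39.6% (33.4 to 46.0) of 245 and 75% (60.4 to 86.4) of 48. Counting any other union region within 1 kb, 380 limb members (61.7%) and 377 trunk members (52.9%) had such a neighbour, as had 71.1% of all promoter regions. The nearest such neighbour was a region of all 4 lists for 178 limb and 138 trunk members, and another region of the same population alone for 26 and 65.

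The strongest members show this pattern by name. In the limb Vgll4, a transcriptional cofactor of the Hippo pathway, came highest with a −log10 p of 20.7 (chr6:114898884-114899180, 69 reads, fold of 3.81), 116 bp from a region of all 4 lists. It was followed by Wdr18 (17.8), Siae and Spa17 (16.9), Ldb1 (16.6), a LIM-domain-binding cofactor, Bdh2 (16.4), Zbtb47 (15.8) and Jak1 (15.3), a cytokine receptor kinase. Steep1 and Ube2a (14.97), Abhd15 and Trp53i13 (14.8), Arl14epl (14.6), Cyc1 (14.51) and Dkk2 (13.8), a secreted Wnt modulator, completed the list of 12. Of these, 10 had an interval of another list within 1 kb and 9 had a region of all 4 lists in the windows of the same gene. The exceptions were Bdh2, an enzyme of ketone body and siderophore chemistry, 26659 bp from another list, and Arl14epl, 36926 bp from one.

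In the trunk the highest −log10 p was 22.5 at Ctdnep1 and Elp5 (chr11:69871576-69871824, 68 reads, fold of 4.15), 151 bp from a region of all 4 lists. Zfp532 (21.0), Tdrkh (19.3), Reep2 (18.8), Lrp8 (15.6), a lipoprotein and reelin receptor, Ggta1 (14.99) and Spry1 (14.9), an inhibitor of receptor tyrosine kinase signalling, came next. Hoxd3 (14.6), Nup50 (14.3), Mapk6 (14.3), Irag1 (14.2) and Garem1 (14.2) followed. Of these 12, 9 had an interval of another list within 1 kb and 6 had a region of all 4 lists in the windows of the same gene. Tdrkh, a Tudor protein of the germline piRNA pathway, was 19508 bp from another list, Hoxd3 14425 bp and Reep2 8968 bp. The part of the neighbouring peaks in the strength of these members was not tested.

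A region was the only marked one in the windows of its genes for 144 limb members (23.4%, 20.1 to 26.9) and 227 trunk members (31.9%, 28.5 to 35.4), beside 24.6% of all promoter regions. Conversely, 317 limb members (51.5%) and 258 trunk members (36.2%) shared a gene with a region of all 4 lists, beside 55.5% of all promoter regions, 49.5% of those of limb EGFP+ cells alone and 46.1% of those of trunk EGFP+ cells alone. Members chosen here after their values were seen, as the strongest that were alone on their genes, include Sp9 in the limb, a transcription factor of the apical ectodermal ridge and of forebrain neurons. Its region (chr2:73102463-73102736) had a −log10 p of 12.6 with 19 reads over a background of 2.16. Also in the limb, Hunk had a −log10 p of 11.95, Enpp3 of 11.2, and Slc40a1, the iron exporter ferroportin, of 10.8. In the trunk, Rab12 had 12.9, Mapk13, a p38 kinase of epithelia, 11.8, Usp43 11.3 and Alpl, tissue-nonspecific alkaline phosphatase, 10.6. Being alone on a gene did not mean being far from other peaks, since Enpp3 was 82 bp and Mapk13 36 bp from an interval of another list, whereas Slc40a1 was 88308 bp and Usp43 25718 bp from one. Of the widest members, those at Emilin2 (1104 bp, limb) and Prox1 (990 bp, trunk) had other regions within 269 and 262 bp. The widest trunk member alone on its gene was that at Parm1 (960 bp, −log10 p of 10.3), 292 bp from a region of limb EGFP- cells alone.

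Most members had their summit close to a start site. The summit lay within 500 bp of a start site for 447 limb members (72.6%, 68.9 to 76.1) and 529 trunk members (74.3%, 70.9 to 77.5), against 86.5% of regions of all 4 lists. It lay before the start site for 62.8% (58.9 to 66.7) of limb members and 42.7% (39.03 to 46.4) of trunk members. Among regions of 1 EGFP+ population alone this share was 53.6% in the limb and 59.3% in the trunk, and it was 42.7% in regions of both EGFP- lists alone and 36.7% in regions of all 4 lists. By annotation, summits lay in an exon of a protein-coding transcript for 25% of limb and 36.8% of trunk members, in an intron for 39.3% and 42.8%, and outside transcripts for 35.7% and 20.4%.

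**Figure D2:**
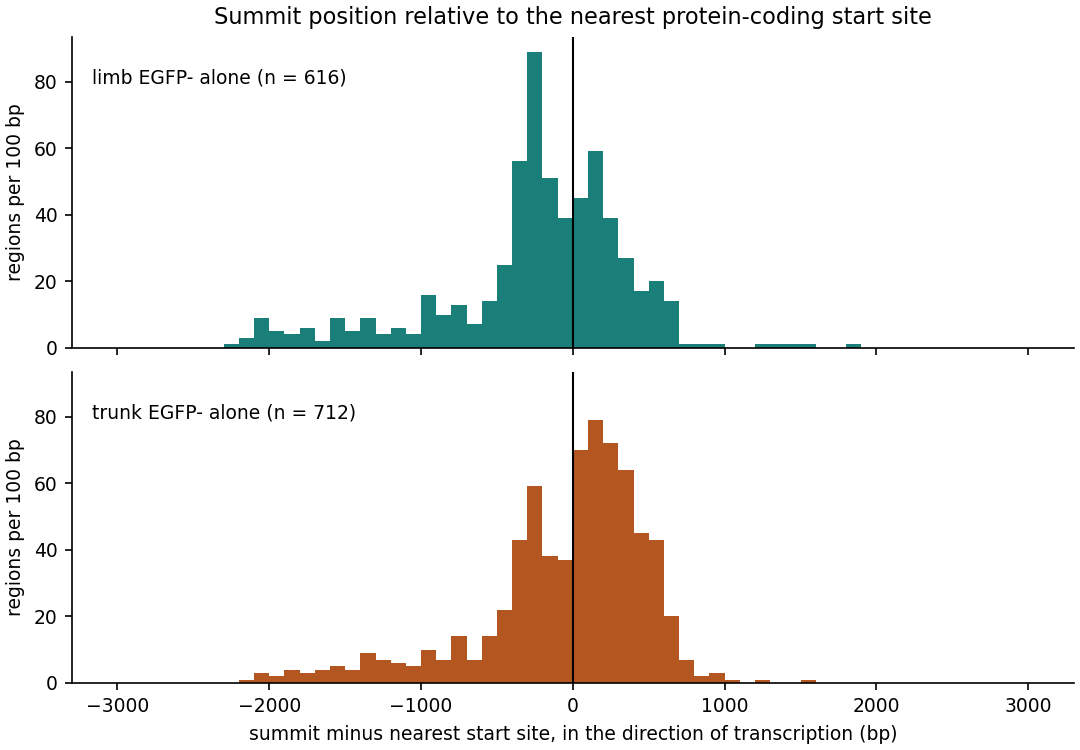
Position of the summit relative to the nearest protein-coding start site, in bins of 100 bp, with limb members above and trunk members below. Bars count regions, and the vertical line marks the start site; 62.8% of limb and 42.7% of trunk summits fall to its left.

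The members were poorer in CpG than shared promoters. Over 500 bp centred on the summit, the median ratio of observed to expected CpG was 0.37 in the limb and 0.47 in the trunk, against 0.69 in regions of all 4 lists and 0.65 in all promoter regions. Regions of both EGFP- lists alone had 0.46, and those of limb EGFP+ and trunk EGFP+ alone had 0.51 and 0.32. A ratio below 0.4 was found for 331 limb members (53.7%, 49.7 to 57.7) and 296 trunk members (41.6%, 37.9 to 45.3), but for 7.75% of regions of all 4 lists. Median GC was 51.0% and 55.6%, against 58.6%. The spread within the groups was wide. Among named members, Myt1 had no CpG in this window, Irag1 had a ratio of 0.10 and Zbtb47 of 0.11, and the highest ratios included 1.03 at Nup50 and 1.11 at Eif4g3, a translation initiation scaffold. Limb members of −log10 q 8 or more, most of which had a peak of another list within 1 kb, had a median of 0.53, and those below 3 had 0.29. In the trunk these medians were 0.68 and 0.41.

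**Figure D3:**
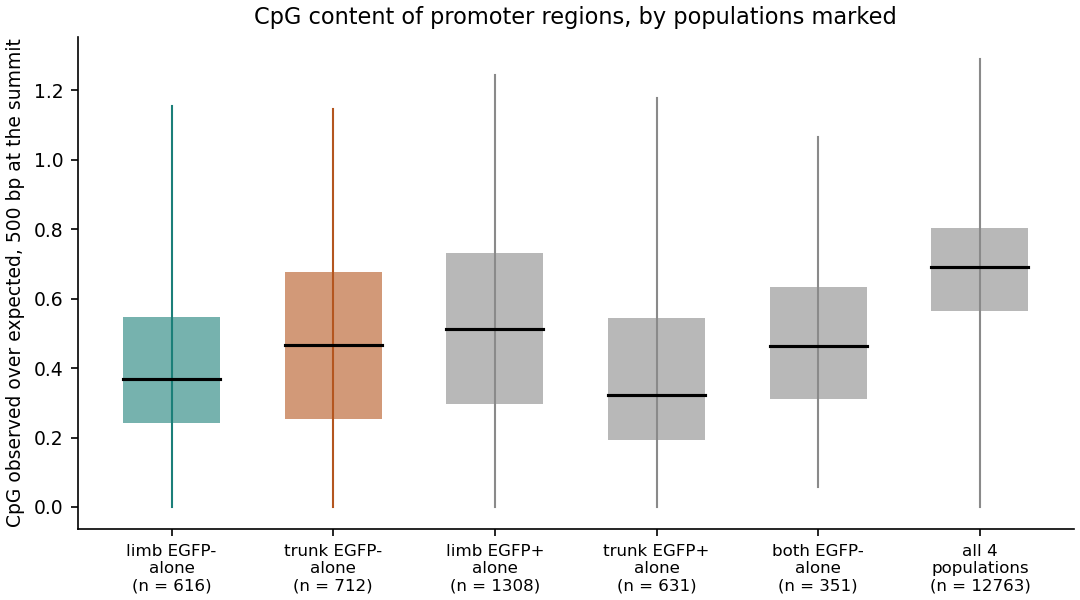
CpG content of promoter regions by the populations that carry them. The y axis gives the ratio of observed to expected CpG over 500 bp at the summit, boxes span the quartiles, black lines are medians and thin lines the full range; medians are 0.37 for limb EGFP- alone, 0.47 for trunk EGFP- alone and 0.69 for all 4 populations.

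Short sequences were counted on both strands of the same 500 bp. GGGCGG, the core of the GC box, was in 35.2% of limb and 44.5% of trunk members, against 57.7% of all promoter regions. CCGGAAG, an ETS-type sequence, was in 5.68% and 5.62% against 13%, and TGCGCA, the core of the NRF1 palindrome, in 6.82% and 9.55% against 11.6%. More members than promoters at large held CAGCTG (29.9% and 33.1% against 24.1%) and CTTTGT, a SOX and TCF sequence (32.6% and 30.6% against 25.8%). TATAAA was found in 18.99% of limb and 12.8% of trunk members against 11.01%, and from 40 to 20 bases before the nearest start site in 8 regions of each group, that is 1.299% (0.56 to 2.54) of limb and 1.12% (0.49 to 2.202) of trunk members against 0.52%. TGTTTAC, a forkhead sequence, was in 7.95% (5.94 to 10.4) of limb and 3.37% (2.17 to 4.97) of trunk members against 4.59%. TGACTCA, the AP-1 site, was in 8.77% and 6.32% against 5.35%, and TTAATTA, a homeodomain sequence, in 4.55% and 3.37% against 2.73%. Over the same 500 bp, the shares in regions of limb EGFP+ alone, of trunk EGFP+ alone and of both EGFP- lists alone follow in that order. CAGCTG had 26.7%, 26.3% and 30.2%, CTTTGT 25.9%, 29.5% and 35.0%, and GGGCGG 48.6%, 33.6% and 44.7%. TATAAA had 14.1%, 14.7% and 16.5%, TGACTCA 6.27%, 8.24% and 5.13%, and TGTTTAC 4.89%, 5.07% and 5.13%. CCGGAAG had 5.35%, 4.44% and 7.12%, TGCGCA 7.87%, 5.71% and 9.12%, and TTAATTA 4.28%, 3.65% and 4.27%. Shares of all these sequences depend on the base composition given above, which differs between the classes compared.

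Next, the members were set against gene lists for the cell types that EGFP- tissue can hold. Of 487 genes in 12 lists, 24 (4.93%, 3.18 to 7.24) had a limb member and 36 (7.39%, 5.23 to 10.1) a trunk member, beside 2.88% and 3.13% of all protein-coding genes. The lists with the highest shares were tendon and connective tissue and skin epithelium in the limb, and skin epithelium, skeletal muscle and neurons in the trunk. Promoter regions of limb EGFP+ cells alone lay at 8 tendon, 5 skin, 2 muscle and 4 neuronal genes. Those of trunk EGFP+ cells alone lay at 6, 2, 2 and 2. On these lists limb EGFP+ cells alone thus had at least as many genes as the limb group, from 1308 regions against 616. Trunk EGFP+ cells alone had 631 regions against 712. Endothelial genes gave 1 member each of 44 (Lyve1 in the limb, Prox1 in the trunk, both used by lymphatic vessels), and blood and immune genes gave 2 limb members (Arhgap30 and Coro1a) and no trunk member of 44 genes.

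**Figure D4:**
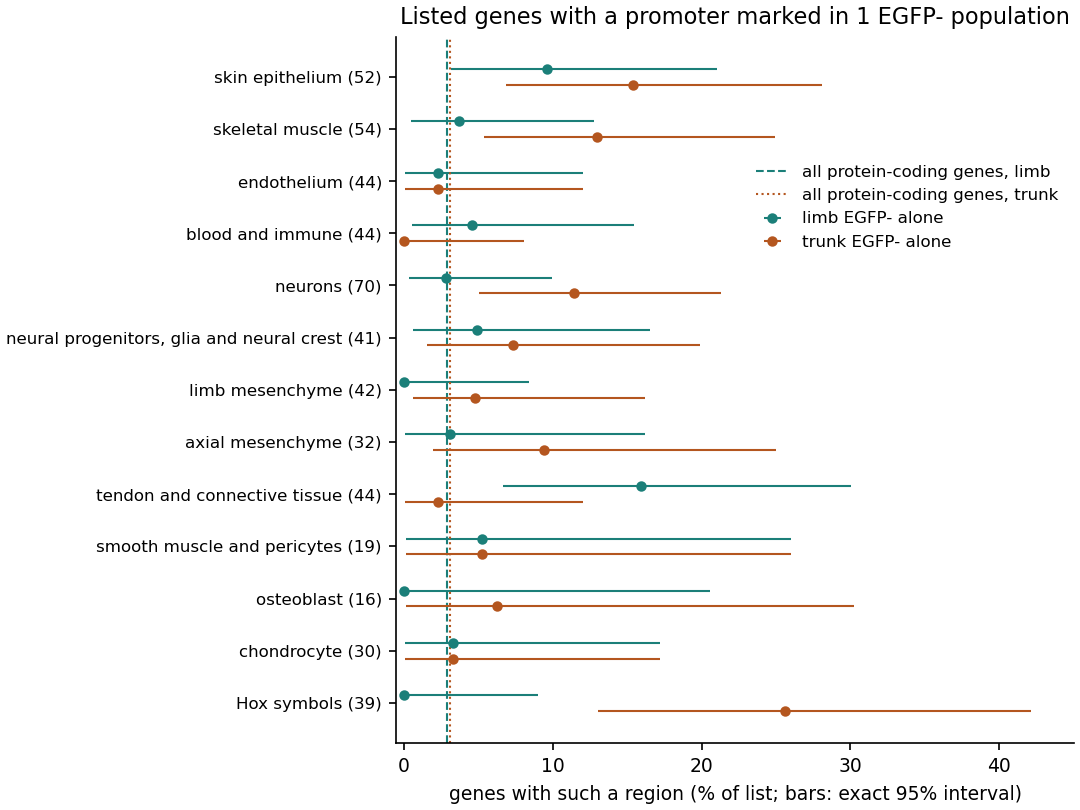
Share of the genes of each list that have a promoter region marked in 1 EGFP- population alone. Points are percentages, bars are exact 95% intervals, numbers in brackets are genes per list, and vertical lines mark the shares among all protein-coding genes (2.88% for the limb and 3.13% for the trunk); skin epithelium, skeletal muscle, neurons and Hox genes have trunk intervals above the trunk line, and skin epithelium and tendon genes have limb intervals above the limb line.

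Skin epithelium genes had members in both groups, 5 of 52 (9.62%, 3.20 to 21.0) in the limb and 8 of 52 (15.4%, 6.88 to 28.1) in the trunk. In the limb they included Grhl3, Esrp1, Pkp3 and Tfap2a. Grhl3 encodes a transcription factor of epidermal differentiation, Esrp1 an epithelial splicing regulator, Pkp3 a desmosomal plakophilin and Tfap2a the transcription factor AP-2 alpha. The −log10 p was 6.68 at Grhl3 (19 reads), 6.22 at Esrp1 (13 reads), 5.37 at Pkp3 (13 reads) and 5.17 at Tfap2a (23 reads). In the trunk they included Jup (8.88), Ap1m2 (8.72), Tfap2c (7.69), Pkp3 (7.44), Cldn4 (6.76), Esrp2 (5.33) and Fermt1 (4.76). Jup encodes plakoglobin, Ap1m2 an epithelial clathrin adaptor, Cldn4 a tight junction claudin and Fermt1 the integrin activator kindlin-1. A −log10 q of 5 was reached at 3 of the trunk genes (Jup, Ap1m2 and Tfap2c). None of these genes except Esrp2 had a region of all 4 lists. Other peaks were often close, since 3 of 6 limb and 4 of 10 trunk regions on listed genes had an interval of another list within 1 kb. The trunk region at Jup lay 403 bp from a region of limb EGFP+ cells alone. Pkp3 had a member of each group, at different positions of the promoter, 588 bp from the limb to the trunk region.

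Skeletal muscle genes gave 2 of 54 in the limb (3.70%, 0.45 to 12.8) and 7 of 54 in the trunk (13%, 5.37 to 24.9). The limb genes were Trim63, a ubiquitin ligase of muscle, with a −log10 p of 6.19 and 11 reads, and Chrng, the fetal subunit of the acetylcholine receptor, with 5.29 and 11 reads. In the trunk, genes of the neuromuscular junction came highest, with 7.06 (15 reads) at Chrna1, a receptor subunit, and 6.80 (16 reads) at Rapsn, which clusters the receptor. Sarcomere genes followed, with 6.45 at Actn2, which encodes alpha-actinin, and 5.53 at Neb, the giant filament protein nebulin. Mef2c, a transcription factor of muscle and other mesoderm, had 5.43, Sgca, a sarcoglycan, 5.04, and the region shared by Hspb2 and Cryab, small heat shock genes, 4.56. In the trunk 5 of the 7 regions were the only marked region of their genes, and 1 of 7 had an interval of another list within 1 kb. None of the trunk or limb regions reached a −log10 q of 5.

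Neuronal genes gave 2 of 70 in the limb (2.86%, 0.35 to 9.94) and 8 of 70 in the trunk (11.4%, 5.07 to 21.3). In the trunk the highest −log10 p was 7.96 (16 reads) at Srrm4, a neuronal splicing regulator, 138257 bp from the nearest union region. Rbfox3, which encodes the nuclear marker NeuN, had 6.58, Stmn3, a stathmin of growing axons, 5.91, Mapt, the microtubule protein tau, 5.33, and Myt1, a zinc finger factor of neurogenesis, 5.31. Kif1a, an axonal kinesin, had 5.26, Celf3, an RNA-binding protein, 4.65 and Tubb3 3.82. No trunk region on a neuronal gene had more than 16 reads at its summit, 6 of 8 were alone on their genes, and 1 gene, Srrm4, reached a −log10 q of 5. In the limb, too, 1 neuronal gene reached a −log10 q of 5, namely Mapt (6.94). The limb regions were at Mapt (9.59, 14 reads) and Rundc3a (5.91, 10 reads). The former lay 414 bp from an interval of another list, and the latter 380 bp from a region of trunk EGFP- cells alone. Of 41 genes of neural progenitors, glia and neural crest, the limb had Nes and Tfap2b and the trunk had Nes, Tfap2b and Ednrb, the endothelin receptor of neural crest cells.

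Tendon and connective tissue genes had the opposite order, with 7 of 44 in the limb (15.9%, 6.64 to 30.1) and 1 of 44 in the trunk (2.27%, 0.06 to 12.02). Promoter regions of limb EGFP+ cells alone lay at 8 of these 44 genes, and those of trunk EGFP+ cells alone at 6. The list was thus not particular to EGFP- cells. The limb members were at Col1a1 (12.8, 72 reads), Mfap5 (8.02), Pdgfra (7.88, 72 reads), Aspn (7.40), Col6a1 (6.48), Dcn (6.43 and 4.58 at 2 regions) and Col12a1 (4.27). Col1a1 encodes a chain of the fibrillar collagen I, Col6a1 a chain of the microfibrillar collagen VI and Col12a1 the fibril-associated collagen XII, Dcn and Aspn small leucine-rich proteoglycans, Mfap5 a microfibril protein, and Pdgfra a receptor of fibroblasts. Most of them had other peaks close by, since 6 of the 8 regions had an interval of another list within 1 kb, and 5 shared a gene with a region of all 4 lists. The promoter of Col1a1 was itself marked in every list, with a highest −log10 p of 22.0, 16.5, 11.3 and 7.93 in limb EGFP+, limb EGFP-, trunk EGFP+ and trunk EGFP- cells. The only trunk gene was Tcf4, at 2 regions (5.72 and 3.97, 19 reads each), and both shared the gene with a region of all 4 lists. Among the study's single-cell markers, Tcf4 stood under dermis and interdigit mesenchyme, not under tendons or muscle connective tissue. When members near another list within 1 kb were left out, 2 limb genes remained on this list, and 3 reached a −log10 q of 5.

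The remaining lists had at most 3 genes in a group. Smooth muscle and pericyte genes were Kcnj8, a pericyte potassium channel, in the limb (6.59) and Acta2, smooth muscle actin, in the trunk (10.1). The Kcnj8 region lay 177 bp from a region of limb EGFP+ cells alone, and that at Acta2 244 bp from a region of both EGFP- lists alone. Of limb mesenchyme genes none of 42 (exact interval up to 8.41%) had a limb member and 2 had a trunk member, Asb4 (4.58) and Sall3 (4.09). Promoter regions of limb EGFP+ cells alone lay at 17 of these 42 genes and those of trunk EGFP+ cells alone at 3. Axial mesenchyme genes were Tbx6 in the limb (3.42), and Zic4 (6.65), Lbx1 (4.65) and Sim1 (3.63) in the trunk. The Tbx6 region lay 247 bp from a region of limb EGFP+ cells alone. Of the 32 axial genes, 1 had a region of limb EGFP+ cells alone and 10 a region of trunk EGFP+ cells alone. Lbx1 is a factor of migrating muscle precursors and dorsal spinal neurons. The osteoblast list had Alpl in the trunk (10.6, 20 reads). The chondrocyte list had Trps1 in the limb (8.14) and Sox9 in the trunk (9.80), the latter 104 bp from a region of all 4 lists. The Trps1 region lay 294 bp from an interval of another list and shared its gene with a region of all 4 lists.

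Hox genes, which set position along the body axis and along the limb, had members in the trunk group alone. Of 39 Hox genes, none had a limb member (exact interval up to 9.03%) and 10 had a trunk member (25.6%, 13.04 to 42.1), beside 3.13% of all genes. The 11 regions lay in all 4 Hox clusters, at Hoxa3, Hoxa5, Hoxa7, Hoxb3, Hoxb6, Hoxb9, Hoxc4, Hoxc10, Hoxd3 (2 regions) and Hoxd8. Of these genes 9 have a paralogue number of 9 or lower, a range that holds 27 of the 39 genes. The −log10 p was 14.6 and 7.45 at Hoxd3, 11.6 at Hoxb3, 8.65 at Hoxa7, 7.69 at Hoxc10, 7.66 at Hoxa3, 7.33 at Hoxc4, 7.03 at Hoxd8, 6.17 at Hoxb6, 5.24 at Hoxa5 and 4.75 at Hoxb9. Reads at the summit ran from 16 to 54, above the median of 16 of the trunk group in all but Hoxb9. The fold ran from 2.24 to 3.87, below the trunk median of 3.55 in all but the stronger Hoxd3 region. Background reads were high at these regions, from 4.96 at Hoxb9 to 21.9 at Hoxa7, against a trunk median of 3.44. An interval of another list lay within 1 kb of 5 of the 11 regions. A distal region marked in trunk EGFP- cells alone lay within 50 kb of 10 of 11, against 3 of 11 for limb EGFP- cells alone. Such trunk and limb distal regions lay near 22.9% and 26.4% of all promoter regions. A −log10 q of 5 was reached at 5 of the 10 genes. Members of a cluster share these distal regions, so the 11 are not independent.

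Other Hox promoters were marked too. A promoter interval of any class was found in trunk EGFP- cells at 21 of the 39 genes and in limb EGFP- cells at 11. Regions of trunk EGFP+ cells alone were found at 7 genes, of both trunk lists alone at 6, of limb EGFP+ cells alone at 5, and of all 4 lists at 3. The limb EGFP+ regions were at Hoxa7, Hoxc9, Hoxd9, Hoxd12 and Hoxd13. For Hoxb3 (plus strand, chr11:96232385-96232534) and Hoxa7 (minus strand, chr6:52194712-52194861), the strongest Hox members whose summit stretch holds no exon, 150 bases at the summit are printed, in introns of Hox transcripts and with CpG in capitals.
Hoxb3: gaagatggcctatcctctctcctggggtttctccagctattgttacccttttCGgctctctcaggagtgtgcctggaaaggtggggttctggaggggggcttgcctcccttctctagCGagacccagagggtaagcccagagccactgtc
Hoxa7: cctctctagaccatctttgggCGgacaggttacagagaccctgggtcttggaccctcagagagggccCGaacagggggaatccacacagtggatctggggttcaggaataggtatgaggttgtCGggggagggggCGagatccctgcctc

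These stretches hold 2 and 4 CpG, and GGGCGG occurs at Hoxa7.

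**Figure D5:**
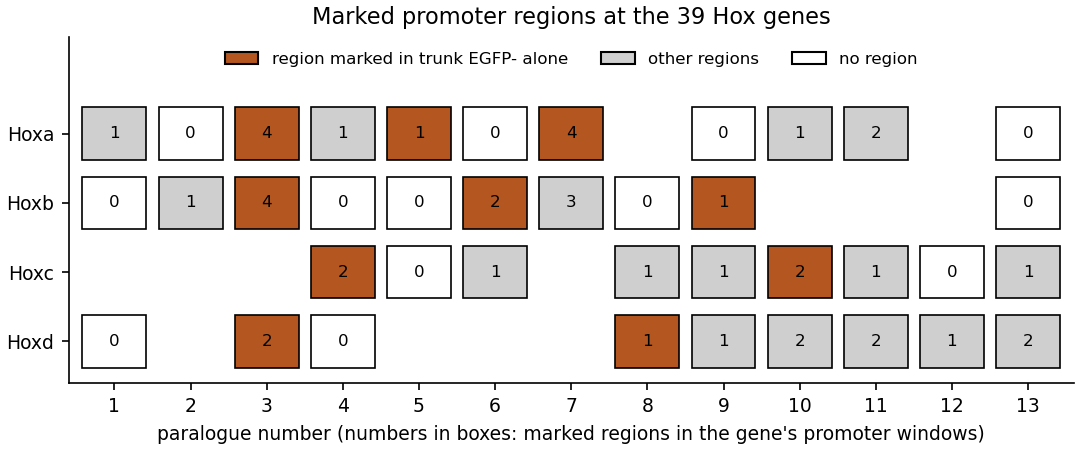
Marked promoter regions at the 39 Hox genes, with the 4 clusters as rows and the paralogue number on the x axis. Numbers count all marked regions in the windows of a gene, and filled boxes are the 10 genes with a region marked in trunk EGFP- cells alone.

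Marker names of 8 mesenchymal clusters were drawn by the study from single-cell RNA-seq of E14.5 limbs. They gave higher shares in the limb than in the trunk group throughout, with wide intervals. Among all protein-coding genes the shares were 2.88% for the limb and 3.13% for the trunk. Pericartilaginous mesenchyme genes had a limb member at 17 of 126 (13.5%, 8.06 to 20.7) and a trunk member at 9 (7.14%, 3.32 to 13.1). The counts were 15 and 10 of 120 for interdigit mesenchyme, 30 and 25 of 343 for muscle connective tissue, 17 and 12 of 252 for dermis and 13 and 7 of 218 for tendons. They were 10 and 8 of 178 for pre-osteoblasts, 7 and 4 of 126 for chondrocytes and 4 and 1 of 33 for perichondrium. The trunk shares of tendons (3.21%), chondrocytes (3.17%) and perichondrium (3.03%) were near that of all genes. Limb EGFP+ cells alone had more genes than the limb group for chondrocytes (25), pre-osteoblasts (26), tendons (25), dermis (21) and perichondrium (8). They had fewer for pericartilaginous mesenchyme (8), muscle connective tissue (23) and interdigit mesenchyme (14). Trunk EGFP+ cells alone had more genes than the trunk group for pre-osteoblasts (15), tendons (14), pericartilaginous mesenchyme (11), chondrocytes (10) and perichondrium (3). Fewer were found for muscle connective tissue (16), dermis (10) and interdigit mesenchyme (6). Most of these genes also had a region of all 4 lists, for example 93 of 126 in pericartilaginous mesenchyme. In contrast, olfactory receptor genes, which are not used in these tissues, had 4 limb members and no trunk member of 1138. These were at Or2av9, Or5m3b, Or4c110 and Or5b94, with 9 to 11 reads, each the only marked region of its gene. Zinc finger genes with Zfp symbols had 7 and 8 of 422.

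Members of both groups were found at 52 genes, 8.36% of the limb and 7.69% of the trunk genes, beside 3.13% of all protein-coding genes with a trunk member and 2.88% with a limb member. At 38 of them the strongest summits of the groups lay less than 2 kb apart. The median distance was 959.5 bp. Highest by the weaker of both peaks was Epb41l2, a membrane skeleton protein, with −log10 p 8.34 (limb) and 8.78 (trunk) at summits 434 bp apart. Next were Akap12, a scaffold of protein kinase A, with 8.64 and 7.88 at summits 4388 bp apart, and Shc2, an adaptor of receptor tyrosine kinases, with 8.79 and 7.67. Nes, the progenitor filament protein nestin, had 7.72 in the limb and 7.38 in the trunk at summits 352 bp apart, and Ttll10 had 7.09 and 6.85.

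Distal regions, which the rule did not use, were counted within 50 kb of each summit. At least 1 distal region of limb EGFP- cells alone lay near 193 limb members (31.3%, 27.7 to 35.2) and 196 trunk members (27.5%, 24.3 to 31.0), beside 26.4% of all promoter regions. Distal regions of trunk EGFP- cells alone lay near 165 limb members (26.8%, 23.3 to 30.5) and 190 trunk members (26.7%, 23.5 to 30.1), beside 22.9%. Limb distal regions outnumbered trunk ones at 141 limb members, trunk ones outnumbered limb ones at 112, and 363 had equal numbers. For trunk members these counts were 133, 134 and 445, and for all promoter regions 3913, 3169 and 12825. The highest numbers were 5 at Pknox1 in the limb, a TALE homeodomain factor, followed by 3 each at Id3, an inhibitor of basic helix-loop-helix factors, and BC004004. In the trunk they were 7 at Hoxc4 and 4 each at Spry1 and Eif4g3.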

How the data were processed

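H3K27ac ChIP-seq of 4 sorted populations was taken from the MACS2 peak lists deposited by the authors, 1 library each. Per the paper's methods, the authors sampled the same number of reads per library, trimmed with CutAdapt 1.18, mapped with Bowtie2 2.3.5.1 to GRCm39, filtered by mapping quality and called peaks with MACS2 2.2.7.1. The deposited fold is a ratio of summit pileup to local background of the same library. The deposited −log10 p and −log10 q values are those of the authors' MACS2 run, and the score that the authors deposited was read but not used. No control library is given in the sources used here, and neither is the sonicator or read length of each library, of which the labels name more than 1. Peak names of the trunk EGFP- list carry a replicate number other than that of its label, and the label was used.

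Summit rows of 1 interval were joined into 1. Intervals of the 19 autosomes, X and Y that shared at least 1 bp were merged, and promoter windows were drawn around 67388 start sites of protein-coding transcripts (GENCODE vM39). Reads at a summit were solved from the deposited fold together with its −log10 p, which worked for 100% of summits. Exact intervals are at the 95% level. The members, gene lists and rules were chosen with earlier results of these data known. Genes named were, per group, the 12 of highest −log10 p, listed genes (4 per list, all for epithelium, muscle, neurons and endothelium), the 3 widest, the 2 of lowest −log10 q, the 3 with the most distal regions of the same population and the 6 genes with members of both groups whose weaker peak was strongest. Hox genes, Col6a1, Dcn and Col12a1, the olfactory receptor genes, members alone on their genes and those at the edges were named beyond this rule after their values were seen. Of the genes this rule names, 1 is not reported here. The 10 upstream stretches first planned for printing reached the peak in 1 case, so stretches centred on the summit were chosen instead. The scripts were tested on simulated data. Versions were matplotlib 3.10.9, pysam 0.24.0, scipy 1.17.1, pandas 2.3.3, numpy 2.4.6 and Python 3.11.15.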

Additional observations from a re-analysis of the deposited data

How the results depend on the processing

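The number of members depended on strength and on distance to other peaks. Keeping members of −log10 q 5 or more left 195 limb and 203 trunk members, and keeping those with no interval of another list within 1 kb left 257 and 390. Cutting all 4 lists at −log10 q 5 gave 439 and 427 (195 and 203 of them members before), and with a fold of at least 4 in all lists 659 and 390. The groups thus changed order in size under these last settings, and the larger number of trunk members did not hold under every setting. An equal number of the strongest intervals per list gave 509 and 716, of which 151 and 231 were members before. Windows of 500 bp on each side, autosomes alone and an overlap of 50% of the shorter interval kept the counts within 1.5 times. The planned setting of start sites of protein-coding transcripts is the one used, and start sites of every transcript (780 and 869 members) were added after the data were seen.

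The share of members alone on their genes was 16.9% and 25.6% (limb and trunk) at a −log10 q of at least 5, 51.8% and 52.6% without neighbours within 1 kb, 18.3% and 26.8% with every transcript, and 37.4% in the trunk with windows of 500 bp. Summits within 500 bp of a start site were 78.5% and 81.8% at a −log10 q of at least 5 and 90.1% and 86.4% with windows of 500 bp. The median CpG ratio was 0.47 and 0.58 at that −log10 q, 0.30 in the limb without neighbours, 0.41 and 0.50 with windows of 500 bp, and 0.33 and 0.43 with every transcript. Causes of these shifts were not tested. Genes of the fixed lists were 7 and 7 at a −log10 q of at least 5 and 10 in the limb without neighbours. At that −log10 q the trunk group kept 3 skin epithelium genes, 1 neuronal gene, no muscle gene, no tendon gene and 5 Hox genes. The limb group kept 1 skin epithelium gene, 1 neuronal gene, no muscle gene, 3 tendon genes and no Hox gene. No paired analysis was possible because each population has 1 library.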
